A study of Mus musculus with 6 samples.

Results

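The baseline described here is that of melanocyte stem cells from wild-type (WT) mice: the 3 samples titled as WT replicates 1 to 3, out of 6 samples in the series. They were chosen by their titles alone and no measured value entered the choice. The cells came from the skin of male mice as a fluorescence-activated cell sort of events positive for green fluorescent protein (GFP) with low side scatter, a sort the labels take to be melanocyte stem cells. The labels do not state which promoter drives GFP, the age of the mice, the hair cycle stage, or whether a sample is 1 animal or a pool, so the spread between the samples may be technical. The other 3 samples carry the K14-SCF transgene and were not used here. Each sample was labelled with the dye Cy3 and hybridised to its own 1-colour Agilent array.

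The hair follicle keeps its supply of pigment cells in melanocyte stem cells. They are known to rest for much of the hair cycle and to give rise, when the follicle grows, to melanocytes that make melanin in organelles called melanosomes and pass these to keratinocytes. The transcription factor MITF drives many melanin genes through a promoter element called the M-box, SOX10 and PAX3 act upstream of it, and the receptors KIT and EDNRB take up the signals of stem cell factor and endothelins. Because the sorted cells are a bulk sample, fewer cells of a type and less RNA per cell cannot be told apart in any value.

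Of 21366 genes named through a RefSeq accession, 16425 (76.9%) were well above background on all 3 arrays, the flag that the scanner software sets for a spot clearly brighter than its surroundings. A further 1443 genes (6.75%) carried the flag on 2 arrays and 1321 (6.18%) on 1 array, and 2177 (10.2%) on no array. A level is the log2 ratio of a probe's processed signal to the 75th percentile of its array, so that 0 is the 75th percentile of all probes and each step of 1 is a 2-fold step in signal. Over all genes the median level was -2.02. The 10% of genes with the highest mean level (2137 genes) are called the brightest, and the 14288 other genes well above background on all 3 arrays (66.9%) the intermediate. The last gene inside that limit was Ptms at 2.3953 and the first outside it Cd247 at 2.3941, so the limit marks no step in the data. A gene is represented by its brightest probe, and probes differ in how well they hybridise. An order of levels across genes is therefore an order of probe signals and not of transcript abundance.

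Several melanin genes share a promoter element, which is why their promoters are shown. The stretches were taken from the RefSeq promoter table of build GRCm38.p6, are written 5′ to 3′ on the strand of the gene, and carry in capitals the M-box TCATGTG or its reverse complement CACATGA, a sequence that includes the E-box core CANNTG. They lie at chr7:87493513-87493574 (minus strand) for Tyr, chr4:80834126-80834212 (plus strand) for Tyrp1, chr14:118052351-118052437 (minus strand) for Dct, chr7:64153653-64153739 (plus strand) for Trpm1 and chr2:125068074-125068126 (plus strand) for Slc24a5.
Tyr: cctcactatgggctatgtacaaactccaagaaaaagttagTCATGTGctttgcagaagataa
Tyrp1: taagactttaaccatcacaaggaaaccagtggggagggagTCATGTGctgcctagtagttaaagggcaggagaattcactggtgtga
Dct: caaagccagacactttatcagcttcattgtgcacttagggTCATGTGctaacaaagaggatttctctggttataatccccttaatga
Trpm1: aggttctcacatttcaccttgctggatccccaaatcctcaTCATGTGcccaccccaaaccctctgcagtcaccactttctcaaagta
Slc24a5: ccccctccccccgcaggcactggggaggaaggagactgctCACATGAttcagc
Counted from the RefSeq start, with -1 as the base before it, the M-box spanned -22 to -16 in Tyr, -47 to -41 in Tyrp1, -151 to -145 in Dct, -142 to -136 in Trpm1 and -13 to -7 in Slc24a5. Dct held another copy, on the opposite strand, at -232 to -226. Searched on both strands over the 300 bases from -250 to 50 around the start, TCATGTG was present in 7 of 17 promoters of the melanin list (41.2%), against 1239 of 32851 promoters in the whole table (3.77%). These 7 belonged to 7 of the 14 genes of that list with a promoter in the table. Besides the 5 genes shown, they were Slc7a11 and Tspan10, with mean levels of -7.28 and -1.39. The genes without a match were Cited1, Gpnmb, Mcoln3 and Atp7a, all among the brightest 10%, and Syngr1, Mfsd12 and Oca2, which were not. Among melanocyte lineage transcription factors TCATGTG was found in 0 of 27 promoters. A match is a string of letters and not a measured binding site.

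Melanin genes were bright as a list in the WT cells. Of 18 enzymes and structural proteins of the melanosome, 16 were well above background on all 3 arrays and 9 lay among the brightest 10%, with a list median of 2.46. Several lists had higher medians, such as the cytoskeleton (4.65), immediate early genes (4.21) and glycolysis (3.02). The share of 50% among the brightest was the same for cell cycle inhibitors and quiescence genes and for class I antigen presentation. Mlana, a melanosomal membrane protein, stood at 5.87, 6.22 and 6.08 on replicates 1, 2 and 3 (mean 6.06 ± 0.18, SD, n = 3). Dct, the dopachrome tautomerase long used as a marker of melanoblasts and melanocyte stem cells, stood at 5.67, 6.08 and 5.60 (5.78 ± 0.26). Pmel, which forms the fibrils on which melanin is laid down, read 5.41, 6.18 and 5.43 (5.67 ± 0.44). Each of these 3 genes was highest on replicate 2, and the lowest of the readings was 5.41, for Pmel on replicate 1.

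Tyr encodes tyrosinase, the rate-limiting enzyme of melanin synthesis, and read 3.82, 4.23 and 3.68 (3.91 ± 0.28, n = 3). Its relative Tyrp1 read 4.65, 4.91 and 4.80 (4.79 ± 0.13). The 2 enzymes with several probes had their next probe at 4.75 (Dct) and 1.59 (Tyr). Cited1, a transcriptional co-regulator of the pigment lineage, had a mean level of 4.07 ± 0.17, the ion channel Mcoln3 of 3.62 ± 0.07, and the melanosomal glycoprotein Gpnmb of 3.58 ± 0.08. The SDs of these 3 genes were all below 0.475, the median SD of all genes.

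The transporters and the receptor of the melanosome were dimmer and less steady than the enzymes. Slc24a5, an ion exchanger of the melanosome, read 2.2286, 2.4795 and 1.0995, and Atp7a, which loads copper into tyrosinase, 2.33, 2.88 and 3.61. Slc45a2, a transporter that keeps melanosomal pH permissive for tyrosinase, had a mean level of -1.72 ± 1.00, with -0.58 on replicate 1 and -2.19 and -2.40 on the others. Gpr143, the melanosomal receptor altered in ocular albinism, read -2.38, -2.88 and -4.33. At the bottom, Slc7a11, the cystine transporter that feeds pheomelanin synthesis, was well above background on replicate 2 alone, and Oca2, a transport protein of the melanosome membrane, on no array. Mlana, at 6.06, was the brightest member of the list.

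**Figure D1:**
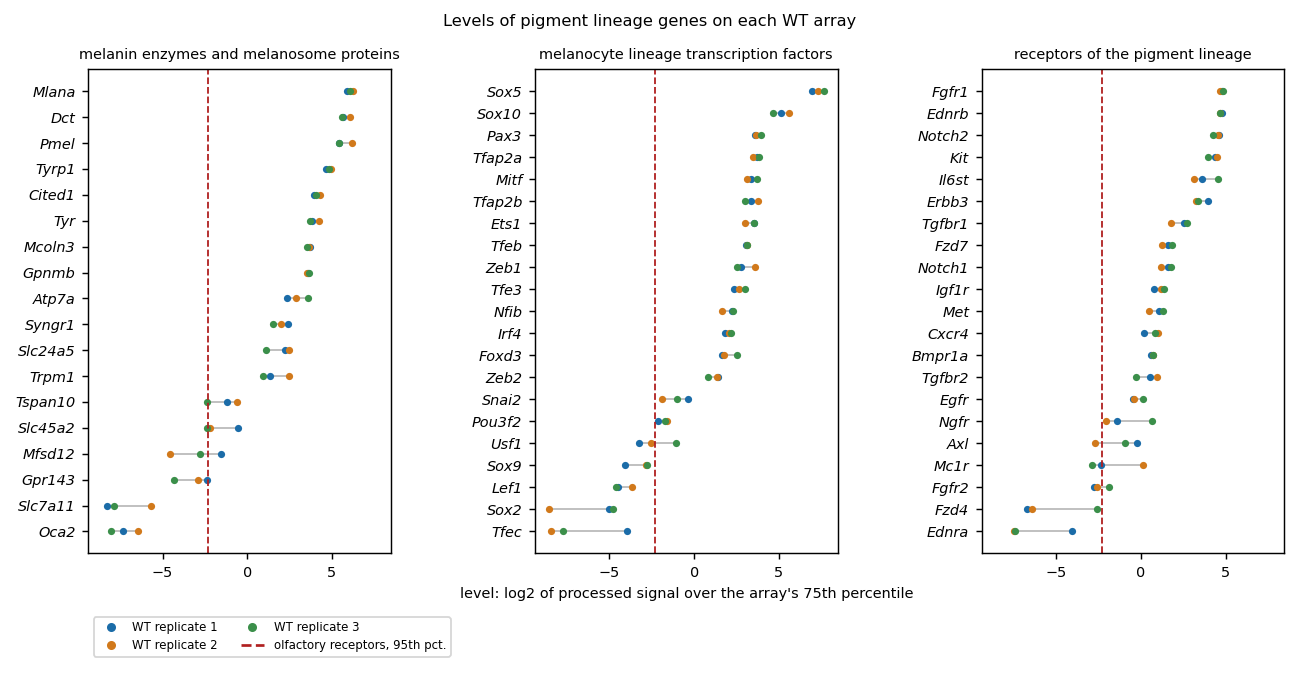
Level of each gene of the melanin, transcription factor and receptor lists on each of the 3 WT arrays, in log2 of processed signal over the 75th percentile of the array, with genes ordered by their mean and a grey line joining the arrays. The dashed line marks the 95th percentile of olfactory receptor genes at -2.30: Mlana, Sox5 and Fgfr1 head the panels, and the 3 arrays of a gene lie close together at the top and far apart at the bottom.

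Melanosomes are built on endosomes and carried along the cytoskeleton, and the genes for this machinery sat mostly in the intermediate class. Of 22 members, 21 (95.5%, all genes 76.9%) were well above background on all 3 arrays, with a median level of -0.14. Among the brightest were 2 (9.09%), near the 10% of all genes. Those 2 were Myo5a, the myosin motor of melanosomes (3.46, 3.97 and 3.68), and Rab27a, the GTPase that ties them to it (3.02, 3.14 and 1.99). Mlph, the linker between the pair, followed at 2.23 ± 0.92 with its lowest value, 1.20, on replicate 3. Rab32, which delivers melanin enzymes, had a mean level of -5.15 and was well above background on 2 arrays. The E-box CACGTG was present in 8 of 23 promoters of this list (34.8%) and in 7.15% of all promoters in the table, while TCATGTG was present in 1 of the 23.

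The transcription factors of the lineage were well represented. Of 21 factors 19 were well above background on all 3 arrays and 10 were among the brightest, with a list median of 2.04. Sox10, required for the neural crest lineage, read 5.15, 5.61 and 4.65 (5.14 ± 0.48), and Pax3, which acts with it, 3.60, 3.66 and 3.95 (3.74 ± 0.18). Mitf read 3.35, 3.10 and 3.70 (3.38 ± 0.31), with a second Mitf probe at 2.16. The factors Tfap2a and Tfap2b, which act beside MITF, had mean levels of 3.67 ± 0.20 and 3.37 ± 0.39. The MITF relatives Tfeb (3.11 ± 0.04) and Tfe3 (2.68 ± 0.32) were also among the brightest. Irf4, a regulator of Tyr, had a mean of 2.01 ± 0.17 and Foxd3, a neural crest factor, of 1.97 ± 0.49. The highest reading of the list, 7.32 for Sox5, rests on 1 probe, since the other Sox5 probe lay at 0.38.

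Some factors with roles in the same lineage were dim. Lef1, the nuclear partner of beta-catenin, read -4.49, -3.64 and -4.60, with its other probe at -4.39. Sox9, a factor of neural crest and hair follicle stem cells, read -4.08, -2.86 and -2.77. Sox2, a pluripotency and glial factor, was well above background on 2 arrays and Tfec, another member of the MITF family, on 1. The SDs of Sox2 (2.12) and Tfec (2.40) were the largest of the list.

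Among the receptors through which the follicle signals to these cells, 19 of 21 were well above background on all 3 arrays and 6 among the brightest. Ednrb, the endothelin receptor of the lineage, was almost the same on the 3 arrays, at 4.76, 4.68 and 4.67 (4.70 ± 0.05). The other Ednrb probe lay at 2.48. Kit, the receptor of stem cell factor, read 4.35, 4.47 and 3.97 (4.26 ± 0.26). Fgfr1 had the highest mean (4.77 ± 0.08), with its other probes at 2.12 and 0.45. Notch2 (4.46 ± 0.19, with another probe at -0.24), Il6st, the shared chain of the interleukin 6 family receptors (3.74 ± 0.71), and Erbb3, a neuregulin receptor (3.53 ± 0.38), completed the bright group. Mc1r, the melanocortin receptor that sets pigment type, was far from steady, at -2.34, 0.13 and -2.87. Its promoter also held TCATGTG. Ednra, the other endothelin receptor, and the Wnt receptor Fzd4 were each well above background on 1 array only.

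The ligands of the niche were found at intermediate to low levels. Of 21 ligands 16 (76.2%) were well above background on all 3 arrays, a share near the 76.9% of all genes. Among the brightest were 0, and the median level of -2.33 was close to that of all genes. Jag1, a Notch ligand, headed the list at 0.57 ± 0.35. Kitl, which encodes stem cell factor, read -3.13, -3.06 and 0.55, so that replicate 3 stood apart from the others. Hgf and Wnt3a were well above background on no array, and the endothelins Edn1 and Edn3 on 1 each.

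Genes that hold the cell cycle were brighter as a list than genes that run it. The inhibitors and quiescence genes had a median level of 2.07, with 23 of 24 well above background on all 3 arrays and 12 among the brightest. Examples were Tob2 (4.32 ± 0.13) and Btg1 (4.11 ± 0.18), antiproliferative proteins of 1 family, the forkhead factors Foxo3 (3.97 ± 0.17) and Foxo1 (3.35 ± 0.13), and Cdkn1b, the kinase inhibitor p27 (2.79 ± 0.12). Cdkn1a, the inhibitor p21, read 3.75, 3.69 and 4.76, with its other probe at -2.95. The locus of the inhibitors p16 and p15 was dim, with Cdkn2a at -4.62 ± 0.34 and Cdkn2b at -5.47 ± 1.41.

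The list of cell cycle and mitosis genes had a median of -2.16, with 28 of 32 (87.5%, all genes 76.9%) well above background on all 3 arrays. Among the brightest were 4 (12.5%), near the 10% of all genes. Those 4 belong to DNA replication: the helicase subunits Mcm7 (4.13 ± 0.26), Mcm4 (3.43 ± 0.66) and Mcm6 (2.64 ± 0.15), and the sliding clamp Pcna (3.93, 3.87 and 4.19). Other members were lower: Mki67, the classic marker of cycling cells, read -0.97, 0.07 and -1.38, Cdk1 -2.49, -2.37 and -2.55, and Top2a -4.83, -4.54 and -4.28. The kinases Aurkb and Bub1 and the G1/S cyclin Ccne2 were well above background on no array. Targets of p53 lay between the lists at a median of -0.08, with Bbc3 (3.79 ± 0.37) and Gadd45a (3.53 ± 0.25) highest, and had the largest median SD of the pathway lists, 0.809.

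Among the lists and families examined, the largest shares of brightest genes were found in classes of general cell function and of the acute stress response. Of 81 cytosolic ribosomal proteins, 76 were among the brightest 10%, with a median level of 5.16 and a median SD of 0.126. Rpl41 (7.10, 7.26 and 7.27) and Rps16 (6.54, 6.98 and 6.82) headed them. In the cytoskeleton list 19 of 20 members were among the brightest (median 4.65), led by Tuba1b at 6.35 ± 0.13, and Vim, the intermediate filament vimentin, read 5.38, 5.44 and 5.59. Translation factors followed with 18 of 21 (median 4.55, median SD 0.181), with Tpt1, a growth-related protein, at 6.93 ± 0.13 and the elongation factor Eef1a1 at 6.01 ± 0.08.

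Immediate early genes, which are switched on within minutes of a stimulus including tissue dissociation, formed another of the bright classes. All 19 were well above background on all 3 arrays and 17 were among the brightest, with a median of 4.21. Fosb read 7.25, 7.43 and 6.91, Fos 5.40, 5.61 and 5.07, and Egr1 4.76, 5.22 and 4.33. The AP-1 partners Jund (5.64 ± 0.45) and Jun (4.13 ± 0.28) and the stress factor Atf3 (4.29 ± 0.32) were also among the brightest. Egr3 (1.33 ± 0.65) and Ier2 (-0.58 ± 0.77) were the 2 outside that class. In the heat shock and chaperone list 16 of 19 members were among the brightest (median 3.68), with Hsp90ab1 at 6.37 ± 0.32, Dnajb1 at 6.25 ± 0.10 and the inducible Hspa1a at 4.63 ± 0.39.

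Metabolic and organelle classes were bright as well. The iron and redox list had 17 of 25 members among the brightest (median 3.91), among them the glutathione peroxidase Gpx1 (6.13 ± 0.20), the metallothionein Mt2 (5.68 ± 0.18) and the ferritin chains Ftl1 (5.40 ± 0.27) and Fth1 (5.37 ± 0.14). Its highest reading, 6.99 for catalase (Cat), was not matched by the other Cat probe at 0.12. Lysosomal and proton pump genes, some of which melanosomes share, had 18 of 27 among the brightest (median 2.92), led by Atp6v0c at 5.03 ± 0.11 and Cd63 at 4.33 ± 0.06. Glycolysis had 11 of 17 (median 3.02), led by Aldoa at 5.53 ± 0.33. Class I antigen presentation had 7 of 14 (median 2.19, median SD 0.210). The heavy chains H2-D1 (5.49 ± 0.08) and H2-K1 (5.28 ± 0.19) and the light chain B2m (4.70 ± 0.12) were bright, while the peptide trimmer Erap1 lay at -4.03 ± 0.43. The H2 genes are near copies of each other, and their separate levels are uncertain.

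**Figure D2:**
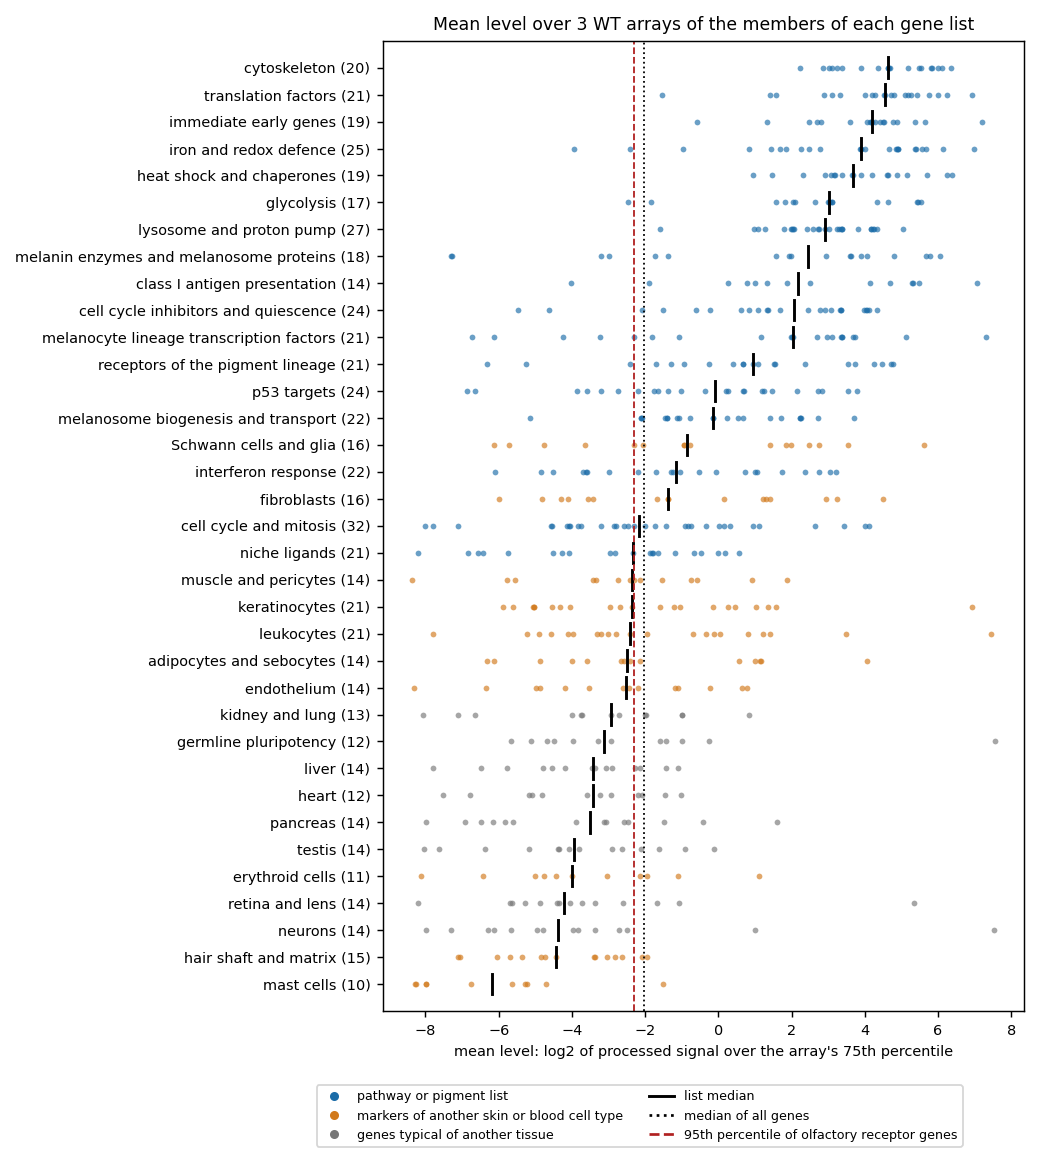
Mean level over the 3 WT arrays of every measured member of each gene list, in log2 of processed signal over the 75th percentile of the array, with the number of members in brackets and a black tick at the list median. Lists are ordered by that median, from the cytoskeleton at 4.65 to mast cells at -6.19. Pathway and pigment lists other than cell cycle and niche ligands sit to the right of the median of all genes (dotted, -2.02), lists typical of other tissues to its left, and single points such as Nanog and Snap25 stand far from their list.

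Other large families were spread over the classes of level. As the background, 66.9% of all genes were in the intermediate class and 10% among the brightest. Mitochondrial ribosomal proteins were all detected, 78 of 78 on all 3 arrays, but 71 of them were intermediate and 7 among the brightest (median 0.64). Proteasome subunits (16 of 40 among the brightest, median 2.06) and the respiratory chain with ATP synthase (37 of 80, median 2.14) straddled the limit. Rab GTPases had a median of 0.02 and histones of -0.995, with the replacement histones H3f3a (4.59 ± 0.20) and H3f3b (4.53 ± 0.09) at the top. Zinc finger proteins lay at -1.37, with 331 of 373 well above background on all 3 arrays and 30 among the brightest. The interferon response list lay at -1.15. Its transcription factors Irf1 (3.04 ± 0.38) and Stat2 (2.75 ± 0.20) were among the brightest genes. The antiviral gene Ifit1 (-5.75, -0.53 and -7.31, well above background on 2 arrays) and the transcription factor Irf7 (-1.03, -3.53 and 1.38) had the largest SDs of the list, while Bst2, which tethers virus particles to the cell (-0.05 ± 0.14), and Oas2, a sensor of double-stranded RNA (-3.69 ± 0.24), were steadier.

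The very top of the ranking was not led by the bright classes above. The 30 genes with the highest mean levels were led by Slc10a1, a bile acid transporter of hepatocytes (8.27, 8.48 and 8.70, mean 8.49 ± 0.22), Glrx2, a mitochondrial glutaredoxin (8.46 ± 0.28), and Exosc2, a subunit of the RNA exosome (8.30 ± 0.16). They included Milr1, an inhibitory receptor of mast cells (8.16 ± 0.17), and the opioid receptor gene Oprm1. For 24 of the 30 the array has several probes, and in all 24 the next probe was more than 3 log2 units (8-fold) dimmer. The smallest gap was 3.49 and the median 10.2, and in 12 genes the next probe lay below the median of all genes. For Oprm1 and Triobp its mean (-7.74 and -6.44) lay below the lowest level that was well above background on any of the arrays (-6.36), so the size of their gaps is not given. Slc10a1 itself had its other probe at 2.59, and Timmdc1, a mitochondrial assembly factor, had 1 probe at 8.16 and 1 at -3.35.

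This disagreement between probes of a gene was concentrated at the top of the ranking. Among the genes with several probes, the next probe was more than 3 log2 units lower in 64 of 68 (94.1%) of the first 100 ranks, in 43.1% at ranks 101 to 300, in 29.5% at ranks 301 to 1000, in 24.7% at ranks 1001 to 2137 and in 21.3% of the rest. The choice of the brightest probe favours such gaps by construction at every rank, and which of the probes measures the transcript was not tested. The same holds for single genes of the lists: Nanog, a pluripotency factor, read 7.56 ± 0.13 on 1 probe and -3.19 and -3.92 on the others, Itgam, an integrin of myeloid cells, 7.46 ± 0.22 against -2.33 and -2.57, and Trp63, a keratinocyte factor, 6.93 ± 0.19 against -5.62. Snap25, a synaptic protein, read 7.28, 7.53 and 7.79 on its only probe. None of these 4 readings is supported by another probe of the gene.

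**Figure D3:**
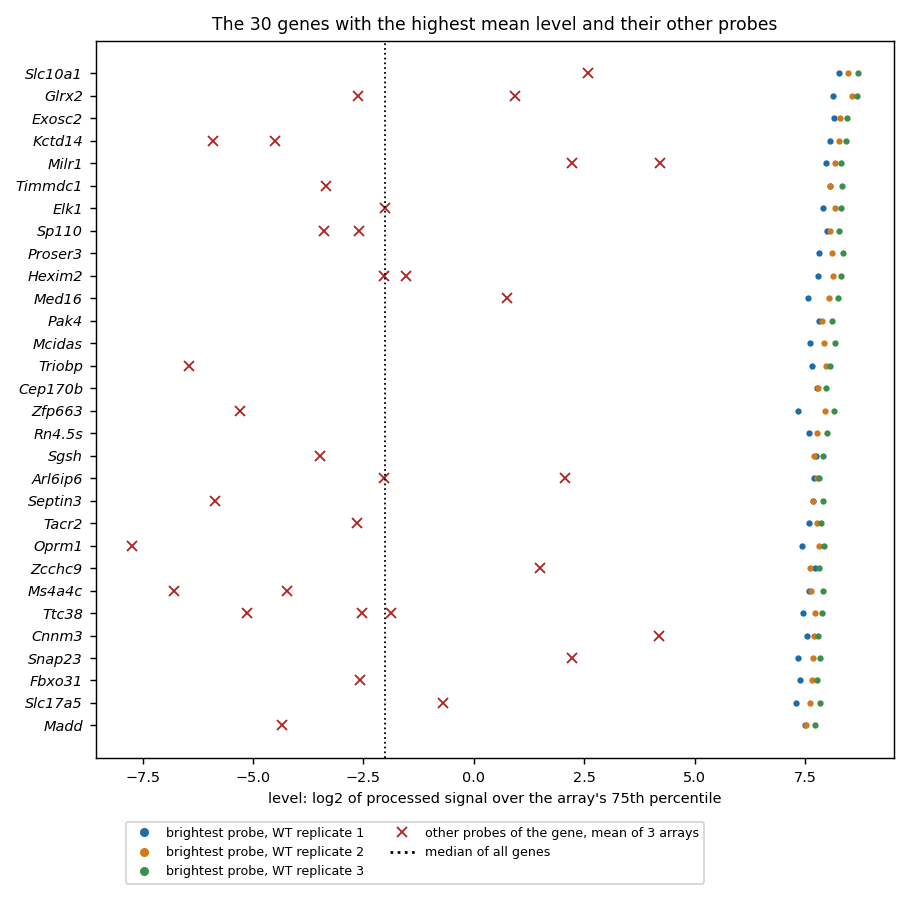
The 30 genes with the highest mean level, with the level of the brightest probe on each WT array (dots) and the mean of 3 arrays of every other probe of the gene (crosses), in log2 of processed signal over the 75th percentile of the array. The dots lie close together at the right, while the crosses lie at 4.21 or lower, 12 genes having their next probe left of the median of all genes (dotted). Genes without a cross have 1 probe.

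Steadiness did not mark these readings, since the median SD of the 30 genes was 0.191 against 0.475 for all genes. All 30 were highest on replicate 3 and 27 were lowest on replicate 1. That order changed with the scaling: after quantile normalization 11, 9 and 10 of the 30 were highest on replicates 1, 2 and 3. When only genes whose probes all lay within 2 log2 units (4-fold) of each other were ranked (2997 of 5754 genes with several probes, 52.1%), the order changed to Tpt1, Rps16, Medag, an adipocyte-associated gene (6.70 ± 0.19), Rps15 and Tuba1b. Of the first 30 of these genes 14, and of the first 100, 34, had a symbol that starts like those of cytosolic ribosomal proteins. The 14 include Rpl31-ps12, named as a pseudogene, and the 34 can include other genes named in this way. Dct was also among the 30, as was the constitutive chaperone Hspa8 (5.70 ± 0.23).

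At the other end, chemosensory receptors were the most numerous of the examined families among the genes on 0 arrays. Olfactory and vomeronasal receptors were 411 of the 2177 genes on 0 arrays (18.9%), while they were 6.21% of all genes measured. Of 1075 olfactory receptors 297 were well above background on no array, with a family median of -5.67. Yet 451 of them carried the flag on all 3 arrays, and the highest, Olfr821, read 1.59, 2.47 and 2.59. Of 252 vomeronasal receptors 114 were on no array and 71 on all 3, with a median of -6.52. A flag on all 3 arrays was thus carried by many members of these chemosensory families.

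The level of these receptors gives a stricter yardstick than the flag. Their 95th percentile was -2.12, -2.07 and -2.00 on replicates 1, 2 and 3, and 9421 genes (44.1%) exceeded it on all 3 arrays, 26 olfactory receptors among them. By this measure 12 of 18 melanin genes, 16 of 21 lineage factors and 15 of 21 pigment lineage receptors were above it, as were 78 of 81 ribosomal proteins and 19 of 19 immediate early genes. Of the measured genes typical of liver, pancreas, testis, neurons, retina and lens, heart, kidney and lung, and the germline, 78 (72.9%) were well above background on all 3 arrays, 20 (18.7%) exceeded the receptors and 3 were among the brightest. Snap25, a synaptic protein, and Nanog, a pluripotency factor, were among those 3. Examples of the dim remainder were the albumin gene Alb (-6.48 ± 1.36, on 1 array) and Gad1, an enzyme of inhibitory neurons, on no array.

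Families that pattern the body or act in immunity were also dim. Hox genes had a median of -4.70, with 22 of 39 well above background on all 3 arrays, 9 on none and 0 among the brightest. Beta-defensins had a median of -5.12 with 0 of 43 among the brightest, interleukins of -4.22 with 0 of 33, and chemokines of -3.79 with 1 of 34, Cxcl1 at 2.48.

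Spread between the arrays depended on level. With the genes ordered by level and cut into 10 bands of equal size, the median SD was 0.225 in the brightest band (band 10), between 0.511 and 0.667 in bands 2 to 6, and 0.519 in the dimmest (band 1). An SD above 1 was found in 0.421% of band 10 and in 34.4% of band 2. Genes well above background on 1 or 2 arrays had the largest median SD, 1.16, against 0.429 on all 3 and 0.436 on none. That group is picked by a flag that differs between the arrays, which favours a large SD by construction. Across the 21366 genes, which are not independent, Pearson's r was 0.944 between replicates 1 and 2, 0.937 between 1 and 3, and 0.932 between 2 and 3, and 25.5%, 27.8% and 29.5% of genes differed more than 2-fold. Replicates 2 and 3 shared a slide, which replicate 1 did not. The pair on 1 slide was thus not the most alike.

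**Figure D4:**
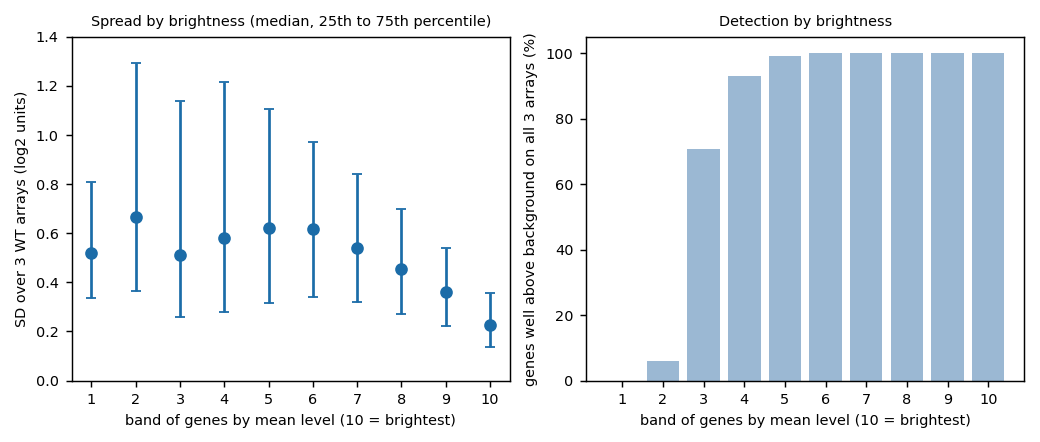
Left, the SD over the 3 WT arrays in log2 units by band of genes ordered by mean level (1 dimmest, 10 brightest), as the median (point) with the 25th and 75th percentile (bar). Right, the percentage of each band well above background on all 3 arrays. The SD is smallest in band 10 (0.225), and detection is complete from band 7 upward.

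Repeated spots separated the scatter of spots from that of arrays. For 399 probes printed in 10 spots each, the median SD between spots of 1 array was 0.105 and that between arrays 0.502, and the SD between arrays was the larger in 342 of them. Replicate 3 stood more than 1 log2 unit below both others in 1753 genes and above both in 1216. For replicate 1 the numbers were 870 below and 1169 above, and for replicate 2 they were 899 and 1501. In the brightest class such departures were few, at most 29 genes on 1 array in 1 direction.

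Of 5342 genes in the brightest 25% that were well above background on all 3 arrays, 472 had an SD below 0.1 and 153 above 1. The steadiest was Gstm1, a glutathione transferase, at 4.8926, 4.8858 and 4.8923 (SD 0.0038). Others among the 10 steadiest were Flot1, a membrane raft protein (2.54, 2.55 and 2.55), the GTPase-activating protein Arhgap29 (1.33, 1.34 and 1.33) and the GTPase Rhoc (3.68, 3.66 and 3.68). With 3 arrays, so small an SD among 5342 genes is a reading of these arrays and no property of the gene.

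The least steady genes of the same set were Tas2r143, a bitter taste receptor (2.33, -2.91 and 3.26), and Ece1, the endothelin-converting enzyme (-1.74, 2.26 and 4.30). Hba-a1, which encodes alpha globin, followed at -1.83, 2.16 and 2.97. Ptn, the growth factor pleiotrophin, read 1.81, -1.20 and 2.19, and Gatb, which acts in mitochondrial translation, 2.37, 2.86 and -1.16. In each of these 5 genes 1 array stood apart, and it was not the same array.

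Markers of other skin and blood cells were present at levels that differed between the arrays, and several of their lists moved more between arrays than the melanin list, whose medians were 2.35, 2.68 and 2.55. The median of 11 erythroid markers was -5.23, -3.89 and -2.27 on replicates 1, 2 and 3, and that of 14 endothelial markers -3.65, -2.87 and -0.83. The 21 keratinocyte markers had medians of -1.54, -1.54 and -3.20, the 16 fibroblast markers -0.86, -1.11 and -1.40, and the 21 leukocyte markers -2.71, -1.90 and -1.66. The median of all genes moved much less, from -1.92 and -1.88 to -2.07. Spread depends on level, and other dim lists moved too. The SD of the 3 array medians ran from 0.03 (pancreas) to 0.44 (retina and lens) in lists of other tissues. In the family of major urinary proteins it was 0.82. It was 0.27 for fibroblasts, 0.55 for leukocytes, 0.96 for keratinocytes, 1.46 for endothelium and 1.48 for erythroid cells. The part of these cells in the differences between arrays was not tested.

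Globins differed most among the erythroid markers: Hba-a2 read -4.87, 0.22 and 1.36 and Hbb-bt -7.67, -4.12 and -0.18. In the endothelial list Pecam1 read -3.49, -4.66 and 0.38 and Cdh5 -4.91, -4.36 and -3.26, and Lyve1 of lymphatic vessels was on no array. In fibroblasts the collagen genes Col1a2 (5.13, 4.66 and 3.71) and Col3a1 (3.88, 2.99 and 1.96) were bright, while Pdgfra, the receptor that defines dermal fibroblasts, was well above background on 2 arrays at a mean of -5.99. Basal keratin genes were intermediate, Krt14 at 0.60, 3.28 and 0.86 and Krt5 at 0.50, 0.69 and 0.16, and the suprabasal Krt1 was on 1 array. Replicate 2 thus had the highest Krt14 and replicate 3 the highest globin readings.

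Other marker lists held dim, bright and shared members. Mast cells depend on the receptor KIT as well. Of 10 mast cell markers 2 were well above background on all 3 arrays and 4 on none, the IgE receptor chains Fcer1a and Ms4a2 among them, with a median of -6.19. Hair shaft and matrix genes had a median of -4.44 with 0 of 15 above the olfactory receptor limit on all 3 arrays. Of 21 leukocyte markers 9 were above that limit on all 3 arrays, a share near the 44.1% of all genes. Among the brightest 10% were 2 (9.52%), Itgam and the macrophage marker Cd68 (3.57, 4.01 and 2.85). The Itgam reading rests on 1 probe, with the other probes at -2.33 and -2.57. Csf1r, a receptor of macrophages, had a mean level of 1.22 ± 0.15, with its other probes at -0.50 and -1.80, whereas Ptprc, the pan-leukocyte antigen CD45, read -2.52, -1.69 and -1.66. The Schwann cell list had a median of -0.86, but Erbb3, Foxd3, Egr2, Ngfr and Sox2 belong to other lists as well. Of the markers set for the melanocyte lineage, Dct, Mlana, Pmel, Tyrp1, Tyr, Sox10, Pax3, Ednrb, Kit and Mitf were among the brightest 10%. The others, Mc1r (-2.34, 0.13 and -2.87) and Slc45a2 (-0.58, -2.19 and -2.40), did not exceed the olfactory receptor limit on all 3 arrays.

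**Figure D5:**
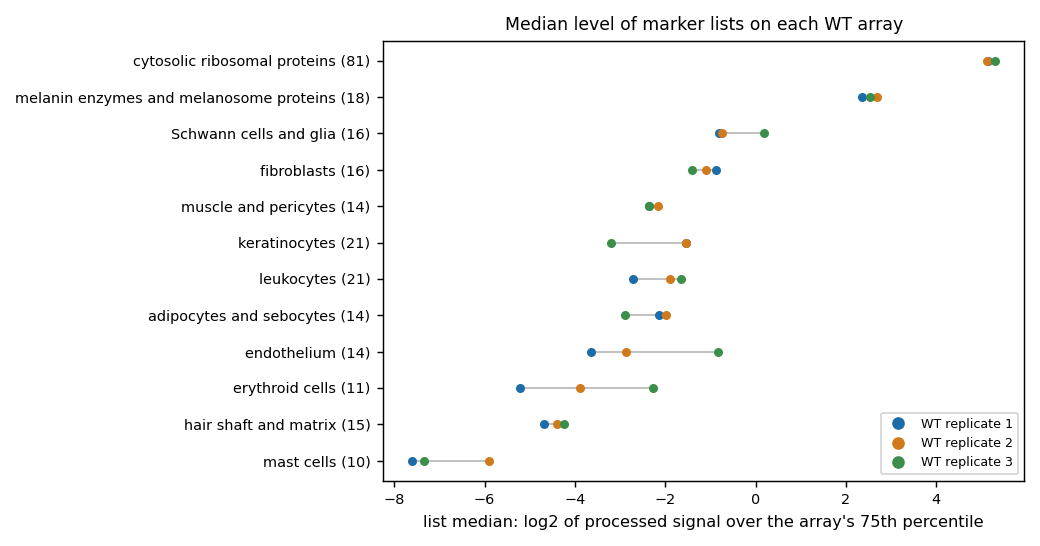
Median level of marker lists on each of the 3 WT arrays, in log2 of processed signal over the 75th percentile of the array, with the number of measured genes in brackets. Ribosomal and melanin lists keep their place on all 3 arrays, while erythroid markers range from -5.23 to -2.27 and endothelial markers from -3.65 to -0.83.

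The labelled sex was checked through Y-linked genes. Ddx3y (0.69 ± 0.49), Eif2s3y (0.35 ± 0.16), Uty (-1.41 ± 0.88) and Kdm5d (-3.52 ± 0.82) were well above background on all 3 arrays. Only Ddx3y and Eif2s3y also exceeded the olfactory receptor limit on all 3. Uty fell below that limit on replicate 2 (-2.31) and Kdm5d on every array. Xist, the RNA of the inactive X chromosome, lay at -4.88 ± 0.83 and was well above background on 2.

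Promoters differed in base composition between the classes of level. For genes with a promoter in the RefSeq table, the median GC content over the 300 bases was 61.7% in the brightest class, 58% in the intermediate, 51% in genes on 1 or 2 arrays and 47.7% in genes on none. The ratio of observed to expected CpG was 0.79, 0.64, 0.31 and 0.24 in the same order. The motif TATAAA between -50 and -1 was present in 2.35%, 2.51%, 4.83% and 5.11% of promoters, and in 2.63% of all promoters in the table. The M-box TCATGTG was present in 2.08%, 2.68%, 4.03% and 4.44% in the same order, and in 3.77% of all promoters. Across the classes it was thus not more frequent in brighter genes. Olfactory receptor promoters, with a median GC content of 35% and a CpG ratio of 0.11, are among the dim classes. The melanin list, although bright, had a median CpG ratio of 0.27.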

How the data were processed

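Per the file headers, the intensity values are the processed signal of each spot on 1-colour arrays, background-subtracted and detrended by Agilent Feature Extraction 10.7.1.1 and not normalized between arrays. The flags of 0 or 1 per spot (well above background, outlier, saturated) were used as deposited, and 0 spots were saturated. The authors also deposited a value table whose unit is a ratio: dividing each array's processed signals by a fixed number gives its column (1566.1, 1608.7 and 1404.6 for replicates 1 to 3, with at least 99.7% of values within 0.001), and column medians were 0.170, 0.177 and 0.169. How the authors set that number is not given in the sources read.

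Control and outlier spots were left out and spots of a probe averaged, leaving 55678 probes. Levels are log2 of the processed signal over the 75th percentile of the array (1572.2, 1614.2 and 1410.7), and 83.5%, 85.9% and 78.4% of probes were well above background. The probe design refers to build mm9. Names came from a RefSeq gene table of GRCm38.p6, used for names and promoter sequences only: 28329 of 29784 probes with a RefSeq accession matched, giving 21366 genes, 5754 with several probes. The brightest probe by mean over the WT arrays stood for a gene. Symbols can be old or, in lists, unmatched.

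No test was run, since 1 group of 3 arrays is described. The number of arrays limits the precision, and means are given ± SD. The members and lists were chosen with earlier results of these data known. The named genes are the 30 with the highest mean, the 10 steadiest and 10 least steady of the brightest 25% well above background on all 3 arrays, and members of the lists, and not every such gene is printed. The steps were tested on simulated data: of 21366 genes drawn, 98.6% kept their true brightest probe and 95.8% of the true brightest 10% were found. Of the drawn genes 15612 have 1 probe, for which the first outcome was fixed. A wrong probe could be chosen only in the 5754 genes with several probes. Python 3.11.15, numpy 2.4.6 and pandas 2.3.3 were used, and R 4.3.3 with limma 3.58.1 for the normexp alternative. Alternatives covered scaling, background correction, the choice of probe, the detection flag, the share called brightest and leaving out each array. The arrays of the transgenic samples were not used here.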

Additional observations from a re-analysis of the deposited data

How the results depend on the processing

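Quantile normalization, scaling to the median of the array and the deposited value table gave 16425 genes well above background on all 3 arrays, and shared 2133, 2137 and 2137 of the 2137 brightest genes with the values reported. Of 59 lists and families, 0 or 1 moved to the other side of the median of all genes under each alternative over all genes. Their medians relative to all genes moved by more than the SD between arrays in 0 of 59 under those 3 scalings, in 34 with normexp, in 27, 28 or 33 with the mean, median or dimmest probe of a gene, and in 9, 12 or 14 without replicate 1, 2 or 3. The mast cell list, for example, lay at -4.17, at -2.12 with normexp and at -5.65 without replicate 2. With normexp on the median signals of spot and local background (offset 50), the median SD of bands 2 to 6 by level was 0.342 in place of 0.600 and the mean r between arrays 0.951 in place of 0.938. The scanner's looser flag, positive and significant, left 457 genes on no array in place of 2177. Calling 5% or 20% brightest gave 1069 or 4274 genes. Taking the mean, the median or the dimmest probe of a gene kept 1728, 1735 or 1490 of the brightest genes, and the dimmest probe gave a mean r of 0.924. Leaving out each array in turn gave mean r values between 0.931 and 0.943.

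Settings chosen after seeing the data changed the counts more. With the 95th percentile of olfactory receptors in place of the flag, 9421 genes counted as detected on all arrays. Restricting the data to the 2997 genes whose probes agree left 2618 genes on all arrays and 116 on none, 300 in the brightest 10%, 8 lists above the median of all genes in place of 17, 47 of 78 list members above it in place of 382 of 620, and a mean r of 0.928. This restriction tests 2997 genes in place of 21366, and 27 in place of 59 lists and families had enough members. Its counts are therefore not like for like with those over all genes. Of these 27 lists and families, 3 changed side.

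No paired analysis was possible because no comparison between groups was made and no result comes from a test. The precision is limited by 3 arrays, by signal over background for dim genes, and by probes of a gene that disagree.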

Other observations

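Probes differed in detection by the kind of RefSeq record they were designed to. Of 26730 probes to curated coding transcripts 76.8% were well above background on all 3 arrays, with a median level of -1.99. Of 1559 probes to curated non-coding transcripts 60.7% were, with a median level of -4.23. Probes with no RefSeq accession, which were left out of every gene count, numbered 25894, and 74.8% of them were well above background on all 3 arrays (median level -2.99).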
